A study of Homo sapiens with 6 samples.

Results

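The genes described here encode the HOMER scaffold proteins, the inositol trisphosphate (IP3) receptors and part of the machinery for store-operated calcium entry. They were chosen as 10 genes (HOMER1, HOMER2, HOMER3, ITPR1, ITPR2, ITPR3, STIM1, STIM2, ORAI1 and TRPC1), and their members are the 29 probe sets that the platform annotation ties to a single one of them, out of 54613 probe sets and 19775 genes measured. The choice was made with the rise of HOMER1 on these same arrays known. The differences of these genes between the groups are therefore given as a description, and no p-value is given for any of them. The arrays came from MDA-MB-231, an established human cell line of triple-negative breast cancer, transfected with small interfering RNA (siRNA) directed at SDC1, which encodes the proteoglycan syndecan-1 (3 arrays), or with a negative control siRNA (3 arrays). The series design describes the replicates as independent. The sources used here give neither the siRNA sequences, their dose nor the time after transfection, and no untransfected cells were analysed here.

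The deposited log2 values of a probe set are centred on its own median across the 6 arrays. They show differences between arrays and not levels, and are called relative log2 values. Log2 differences are SDC1 siRNA minus control siRNA at n = 3 arrays per group, and their standard error (SE) comes from a limma fit. A gene or probe set is said to be past the threshold where its Benjamini-Hochberg adjusted p in the limma fit over all genes or all probe sets was under 0.05, which held for 28.2% of all genes and 19.8% of all probe sets. A coarse brightness class could be read from the numeric step of the values, and it placed 2 of the 29 probe sets in the dimmest, 18 in the middle and 9 in the brightest class. SDC1 itself was at a log2 difference of -2.42 (SE 0.097), which left 18.7% of the control transcript. Of 10 markers of basal breast cancer lines, such as VIM and CD44, 9 lay in the brightest class and SPARC in the dimmest. In the brightest class too were 6 of 10 luminal markers (ESR1, SPDEF, AGR2, KRT19, KRT8 and CDH1). Detection was not judged from the class. Of 10 markers of blood, vessel and fibroblast cells, 3 lay in the brightest class (PECAM1, VWF and COL1A1). Of the last list 2 genes fell (CD14 and COL1A1) and none rose, and its summed relative log2 value ran from -0.02 to 0.84 in the control arrays and from -0.33 to 0.20 in the SDC1 siRNA arrays. Past the threshold 15.2% of all genes were lower and 13.0% higher. Of the basal line markers 4 fell and 2 rose, and of the luminal markers 2 fell and 4 rose. The part of any of these in the results was not tested.

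HOMER proteins are scaffolds. Their N-terminal EVH1 domain grips proline-rich stretches of partners such as IP3 receptors, ryanodine receptors, SHANK proteins and TRPC channels, and their C-terminal coiled coil joins HOMER molecules to each other. A short form of HOMER1, known as Homer1a and best studied in neurons as an activity-induced product, lacks the coiled coil and uncouples the partners. IP3 receptors are the channels through which IP3, made by phospholipase C, releases calcium from the endoplasmic reticulum. When that store empties, the STIM proteins sense the loss and open ORAI channels in the plasma membrane, and TRPC1 contributes to entry in some cells. The annotation does not tie any HOMER1 probe set to the short or the long form.

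The sequences upstream of HOMER1 and HOMER2 are shown because the probe sets of these family members were higher after SDC1 siRNA. They are the 250 bases before the start site, 5′ to 3′ on the gene's strand, from RefSeq (GRCh38.p14), at chr5:79514135-79514384 (minus strand) and chr15:82952721-82952970 (minus strand). Capitals mark the GC box GGGCGG on either strand, and overlapping matches were all counted.
HOMER1: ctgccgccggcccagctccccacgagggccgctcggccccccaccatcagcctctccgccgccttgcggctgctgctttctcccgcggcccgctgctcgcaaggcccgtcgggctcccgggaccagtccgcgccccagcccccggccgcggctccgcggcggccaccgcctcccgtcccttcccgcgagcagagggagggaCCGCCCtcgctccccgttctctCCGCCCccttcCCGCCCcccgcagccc
HOMER2: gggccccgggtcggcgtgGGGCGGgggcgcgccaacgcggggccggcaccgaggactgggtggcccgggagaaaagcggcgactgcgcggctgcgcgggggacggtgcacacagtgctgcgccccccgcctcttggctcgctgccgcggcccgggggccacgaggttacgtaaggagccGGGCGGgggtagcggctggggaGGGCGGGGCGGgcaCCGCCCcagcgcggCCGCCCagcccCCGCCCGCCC
The HOMER1 window held 3 GC boxes and was 80.0% G or C, and the HOMER2 window held 8 and was 82.0% G or C. Among genes not past the threshold, windows held up to 8 GC boxes for STIM1, up to 5 for HOMER3, and 2 for ITPR3 and STIM2. Those of ITPR1 and TRPC1, which were past it and higher, held 0 and up to 2. A link between GC boxes and the differences was not tested. RefSeq windows were found for 8 of the 10 genes, 15 windows in all, some of which overlap, and none for ITPR2 and ORAI1. A GC box lay in 11 of the 15 windows and in 42.6% of all 35116 windows. Neither the cAMP response element TGACGTCA (1.65% of all windows), the E-box CACGTG (6.34%) nor TATAAA on either strand (10.7%) was found in a window of these genes. The shorter TGACG, which TGACGTCA contains, was found in 1 window, of TRPC1, against 21.2% of all windows.

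HOMER1 had the largest difference of the 10 genes. The relative log2 values of probe set 213793_s_at were -0.94, -1.18 and -1.13 in control replicates 1 to 3 and 0.97, 0.94 and 1.12 in SDC1 siRNA replicates 1 to 3. Those of probe set 226651_at were -0.95, -1.01 and -0.89 in the control arrays and 0.91, 0.89 and 0.97 in the SDC1 siRNA arrays. Every SDC1 siRNA array lay above every control array on both, and the gap between the groups was many times the spread within them. The log2 difference was 2.09 (SE 0.091), or 4.26-fold, on the first probe set and 1.87 (SE 0.070), or 3.67-fold, on the second. Averaged over both, HOMER1 was at -1.02 ± 0.08 (SD, n = 3) after control siRNA and 0.97 ± 0.07 (SD, n = 3) after SDC1 siRNA, a log2 difference of 1.98 (SE 0.067) and a ratio of 3.95. Its difference was the fifth highest of the 19775 genes. In bulk RNA, more cells with the transcript and more transcript per cell cannot be told apart, here or for the genes that follow. Both probe sets were in the brightest class, and leaving out any 1 array or changing the normalization kept the gene between 1.94 and 2.17.

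HOMER2, a scaffold of the same domain layout, had probe sets of unequal response. On 1556097_at the relative log2 values were -0.46, -0.46 and -0.36 in the control arrays and 0.54, 0.36 and 0.53 in the SDC1 siRNA arrays, a log2 difference of 0.91 (SE 0.079) or 1.87-fold. On 217080_s_at they were -0.19, -0.05 and -0.19 against 0.05, 0.21 and 0.08, a log2 difference of 0.26 (SE 0.080) or 1.20-fold. The groups did not overlap on either, yet the smaller difference was not past the threshold in the fit over all probe sets. The mean of the 2 gave the gene a log2 difference of 0.58 (SE 0.056), with SDs of 0.04 and 0.01 in the control and SDC1 siRNA arrays, below the median within-group SD of 0.092 over all genes. The probe sets themselves spread more, with SDs in the control and SDC1 siRNA arrays of 0.06 and 0.10 on 1556097_at. On 217080_s_at they were 0.08 and 0.09, so the small SDs belong to the mean and to neither probe set.

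HOMER3 showed no such separation. Its probe set in the brightest class, 204647_at, read 0.18, -0.04 and -0.08 in the control arrays and -0.04, 0.10 and 0.04 in the SDC1 siRNA arrays, so the groups overlapped. The log2 differences of its 3 probe sets were 0.01 (SE 0.090), -0.10 (SE 0.093, on the cross-hybridising 215489_x_at) and -0.02 (SE 0.099). Whether the members of the family differ from each other was not tested, as the genes were chosen on this contrast.

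**Figure D1:**
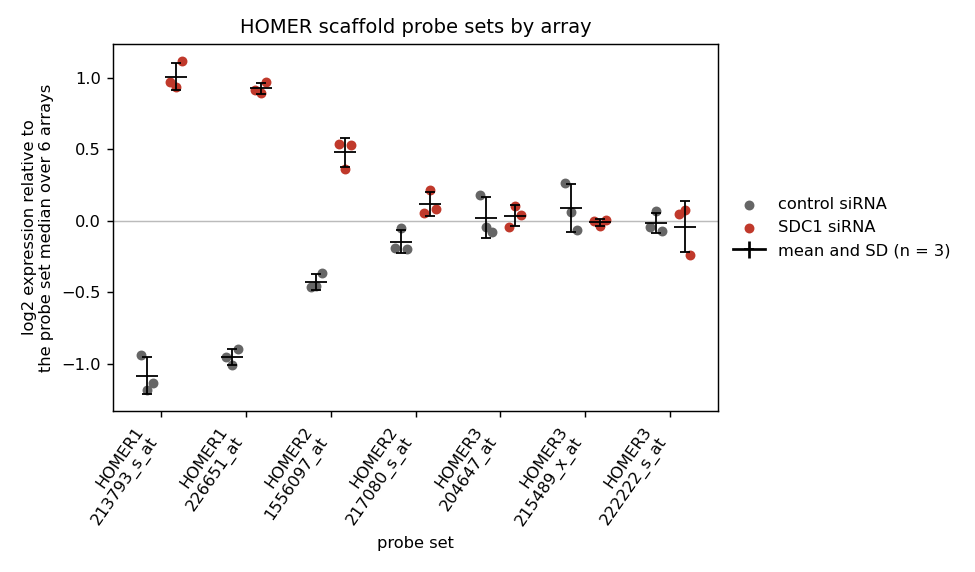
Relative log2 expression (vertical axis) of the 7 HOMER probe sets (horizontal axis) on each array, with grey points for the 3 control siRNA arrays, red points for the 3 SDC1 siRNA arrays, and black bars for mean and SD. Both HOMER1 probe sets part by about the same amount (2.09 and 1.87), the HOMER2 probe sets by 0.91 and 0.26, and the groups of the HOMER3 probe sets overlap.

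Of the 3 IP3 receptor genes, ITPR1 was past the threshold and higher, while the gene values of ITPR2 and ITPR3 were not past it. ITPR1, the type 1 receptor, has 5 probe sets. On 203710_at the relative log2 values were -0.16, -0.23 and -0.16 in the control arrays and 0.16, 0.20 and 0.20 in the SDC1 siRNA arrays, a log2 difference of 0.37 (SE 0.067) or 1.29-fold. On 216944_s_at, the other probe set in the brightest class, they were -0.16, -0.20 and -0.10 against 0.17, 0.10 and 0.18, a log2 difference of 0.30 (SE 0.070). Both sets of groups stood apart by more than their spread. Probe set 216944_s_at was not past the threshold without control replicate 2, SDC1 siRNA replicate 1 or SDC1 siRNA replicate 3, with log2 differences from 0.28 to 0.33 over all alternatives. The middle-class probe set 211323_s_at gave a log2 difference of 0.21 (SE 0.080), and the 2 in the dimmest class gave 0.14 (SE 0.071) and 0.01 (SE 0.082). The gene value, from the brightest probe sets, was a log2 difference of 0.34 (SE 0.057), and with all 5 averaged it was 0.20.

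ITPR2, the type 2 receptor, was lower after SDC1 siRNA on 3 of its 4 probe sets. Probe set 202660_at read 0.39, 0.26 and 0.28 in the control arrays and -0.62, -0.30 and -0.26 in the SDC1 siRNA arrays, a log2 difference of -0.70 (SE 0.10). Probe set 202661_at read 0.19, 0.25 and 0.15 against -0.15, -0.16 and -0.50, a log2 difference of -0.47 (SE 0.10). The groups did not overlap, though a single SDC1 siRNA array lay far below the other two on each, replicate 1 on the former and replicate 3 on the latter. Probe set 202662_s_at read 0.37, 0.25 and 0.38 against -0.30, -0.25 and -0.30, a log2 difference of -0.62 (SE 0.071), or 65.2% of control. The fourth, 211360_s_at, read 0.15, -0.07 and 0.01 against -0.29, -0.01 and 0.06, with overlapping groups and a log2 difference of -0.11 (SE 0.11). That last probe set alone was placed in the brightest class and so set the gene value (-0.11), which was not past the threshold. The mean of all 4 was a log2 difference of -0.48 (SE 0.064) and was past it, so the gene's call rests on which probe sets are read.

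ITPR3, the type 3 receptor, shifted little. Its 2 brightest probe sets, 201188_s_at and 201189_s_at, both gave a log2 difference of 0.16 (SE 0.068), with groups that did not overlap. The former read -0.05, -0.06 and -0.07 in the control arrays and 0.10, 0.16 and 0.05 in the SDC1 siRNA arrays. The latter read -0.04, -0.13 and -0.10 against 0.09, 0.10 and 0.04. The other probe sets, at 0.06 (SE 0.10) and 0.11 (SE 0.10), had overlapping groups. None of the 4 was past the threshold, and neither was the gene at 0.16 (SE 0.057), which passed it only with a prior that follows the brightness class. Of the transcripts that neighbour receptor genes, ITPR1-DT was at a log2 difference of 0.11 (SE 0.14, limma adjusted p = 0.614) and ITPR3-AS1 at 0.13 (SE 0.064, limma adjusted p = 0.173). Both transcripts were chosen after their values were seen, so their adjusted p-values are a description and not tests.

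**Figure D2:**
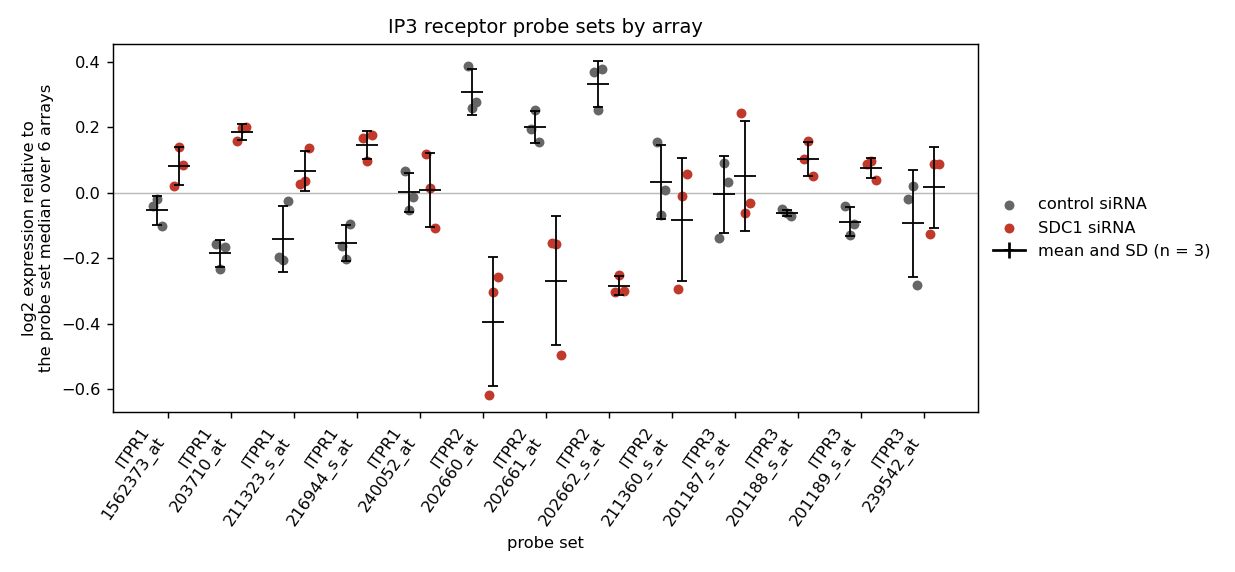
Relative log2 expression (vertical axis) of the 13 IP3 receptor probe sets (horizontal axis) on each array, with grey points for control siRNA, red points for SDC1 siRNA, and black bars for mean and SD (n = 3). The first 3 ITPR2 probe sets lie lower in all SDC1 siRNA arrays, 203710_at and 216944_s_at of ITPR1 lie higher, and the ITPR3 differences stay within 0.16.

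Among the genes of store-operated entry, ORAI1 was lower. ORAI1 forms the pore of the calcium release-activated channel and is measured by a single probe set, 226531_at, in the brightest class. It read 0.37, 0.43 and 0.26 in control replicates 1 to 3 and -0.39, -0.26 and -0.33 in SDC1 siRNA replicates 1 to 3. The groups lay well apart, with means of 0.35 ± 0.09 and -0.32 ± 0.07 (SD, n = 3). The log2 difference was -0.68 (SE 0.069), which is 62.6% of control.

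TRPC1, a cation channel subunit that binds HOMER and the IP3 receptor, was higher. Probe set 205802_at read -0.12, -0.14 and -0.13 in the control arrays and 0.32, 0.27 and 0.12 in the SDC1 siRNA arrays, a log2 difference of 0.36 (SE 0.077). Probe set 205803_s_at read -0.16, -0.24 and -0.39 against 0.48, 0.16 and 0.32, a log2 difference of 0.58 (SE 0.10) or 1.49-fold. Neither pair of groups overlapped. On the third, 211602_s_at, control replicate 3 read 0.12 and the other control arrays -0.40 and -0.46, against 0.28, -0.11 and 0.11 in the SDC1 siRNA arrays, so the groups overlapped at a log2 difference of 0.34 (SE 0.16). Without control replicate 3 this probe set was at 0.53 and past the threshold. The mean of the 3 probe sets was a log2 difference of 0.43 (SE 0.081).

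Neither calcium sensor of the store was past the threshold at the level of the gene. STIM1, the main sensor, was at log2 differences of -0.03 (SE 0.15) on 1557477_at and -0.04 (SE 0.082) on 202764_at, with overlapping groups on both. On 1557477_at control replicate 3 stood apart at 0.39, with the other control arrays both at -0.13. STIM2, which responds to smaller losses of store calcium, had 1 of 3 probe sets past the threshold. That one, 225250_at, read -0.04, -0.30 and -0.25 in the control arrays and 0.27, 0.28 and 0.04 in the SDC1 siRNA arrays, a log2 difference of 0.39 (SE 0.10). It was no longer past the threshold without control replicate 2, control replicate 3, SDC1 siRNA replicate 1 or SDC1 siRNA replicate 2, with log2 differences from 0.31 to 0.47 over all alternatives. The other STIM2 probe sets were at 0.03 (SE 0.071) and -0.04 (SE 0.087), and the gene value was a log2 difference of 0.13 (SE 0.056).

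**Figure D3:**
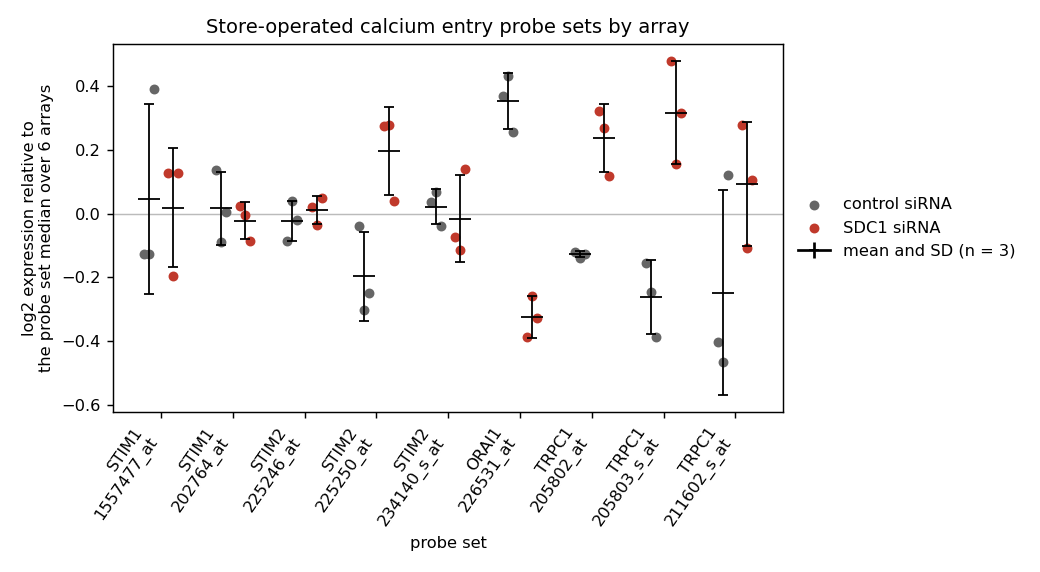
Relative log2 expression (vertical axis) of the 9 STIM1, STIM2, ORAI1 and TRPC1 probe sets (horizontal axis) on each array, with grey points for control siRNA, red points for SDC1 siRNA, and black bars for mean and SD (n = 3). The single ORAI1 probe set lies lower in all 3 SDC1 siRNA arrays, the first 2 TRPC1 probe sets lie higher, and the STIM1 groups overlap.

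Counted together, 5 of the 10 genes were past the threshold, where 28.2% of all genes were. HOMER1, HOMER2, ITPR1 and TRPC1 were higher (13.0% of all genes) and ORAI1 was lower (15.2% of all genes). The groups of arrays did not overlap for 7 of the 10 genes, against 41.8% of all genes. The counts are printed as a description, since the genes were chosen on this contrast. Of the 29 probe sets, 12 were past the threshold (8 higher and 4 lower), where 19.8% of all probe sets were (9.70% higher and 10.1% lower), and 17 had groups that did not overlap, against 35.7% of all probe sets. By class, 0 of 2 probe sets in the dimmest, 7 of 18 in the middle and 5 of 9 in the brightest were past it, against 3.52%, 17.8% and 34.3% of all probe sets in these classes. The median log2 difference of the 10 genes was 0.15, and that of all genes 0.00. All 5 called genes were past the threshold, with the same sign, under each of 14 alternatives.

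The poly-A spike-in controls, 24 probe sets for RNA added before labelling, parted the arrays into 2 sets that each hold both groups. Their mean relative log2 value ran from 0.39 to 0.68 in SDC1 siRNA replicates 1 and 2 and control replicate 1, and from -0.47 to -0.43 in the other 3 arrays. Within the first and second set HOMER1 was at log2 differences of 1.87 and 2.10, HOMER2 at 0.62 and 0.57, ITPR1 at 0.32 and 0.36, ORAI1 at -0.69 and -0.67 and TRPC1 at 0.46 and 0.39. The ITPR2 probe sets 202660_at and 202661_at went from -0.85 to -0.53 and from -0.35 to -0.70, while 202662_s_at was at -0.64 and -0.62. Of the 29 probe sets, 7 changed sign between the sets, none of them past the threshold over all 6 arrays. They were the other ITPR2 probe set, 211360_s_at (from -0.31 to 0.09), all 3 HOMER3 probe sets (204647_at from -0.15 to 0.10, 215489_x_at from -0.28 to 0.01 and 222222_s_at from 0.11 to -0.24), ITPR3 201187_s_at (from 0.23 to -0.09), STIM1 1557477_at (from 0.09 to -0.01) and STIM2 234140_s_at (from -0.13 to 0.12). Each set has 1 array of one of the groups, so these values have no error of their own.

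**Figure D4:**
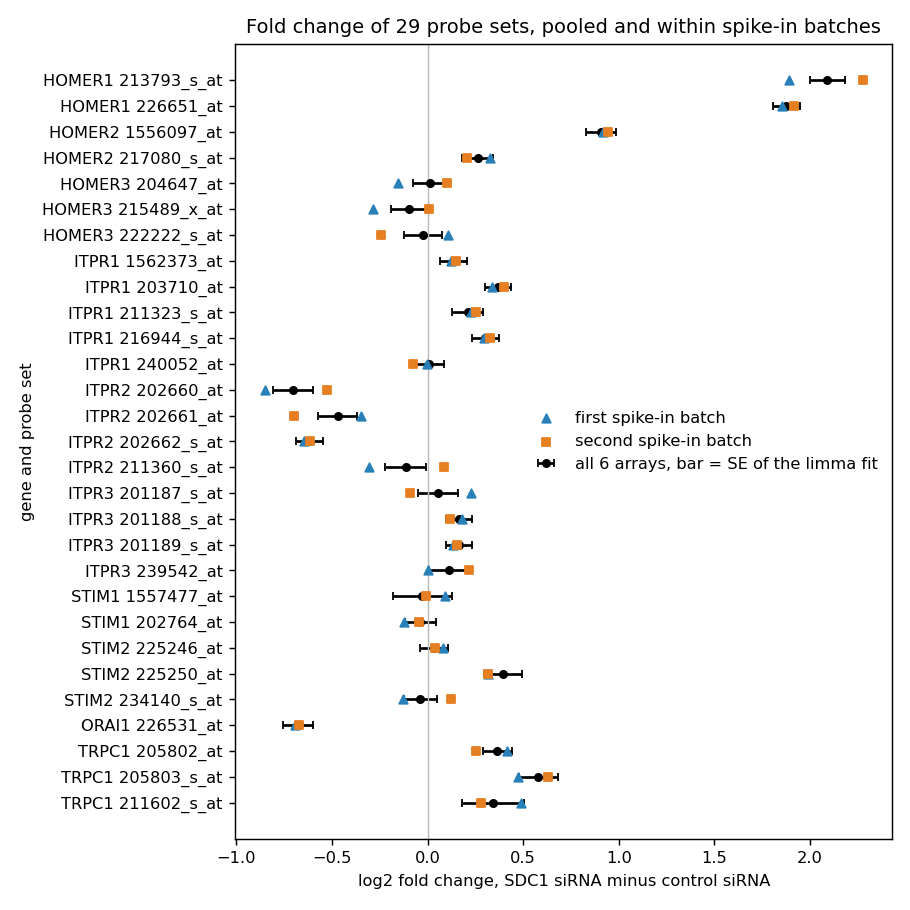
Log2 difference, SDC1 siRNA minus control siRNA (horizontal axis), of the 29 probe sets (vertical axis), from all 6 arrays (black points, bars for the SE of the limma fit) and within the first (blue triangles) and second (orange squares) spike-in set. HOMER1 lies furthest right in all 3 readings, 3 ITPR2 probe sets, ORAI1 and STIM1 202764_at lie left of 0 in all, and 7 probe sets, all 3 of HOMER3 among them, change side between the spike-in sets.

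The genes whose 6 relative values lay nearest to those of HOMER1, by root mean square difference over the 6 arrays, were SLC16A9 (0.101), TOP1MT (0.123), LSM14A (0.124), DHX40 (0.125) and THG1L (0.129). SLC16A9 is a monocarboxylate transporter family member, TOP1MT the mitochondrial topoisomerase, LSM14A an RNA-binding protein of processing bodies, DHX40 a DEAH-box helicase, and THG1L adds a base to histidine tRNA. Their log2 differences ran from 1.79 for DHX40 to 2.05 for THG1L, beside 1.98 for HOMER1. The measure picks genes with a difference of like size, and the arrays are shared by all of them.

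Other genes of calcium signalling were taken from 8 lists by function, with 122 genes measured. Of these 22 rose and 22 fell, 36.1% together, beside the 28.2% of all genes (13.0% higher and 15.2% lower). The shares of all genes stand beside each list count below. The lists were chosen with earlier results of these data known, and the genes named from each were picked for their lowest p. Their adjusted p-values are therefore given as a description and not as tests. Among proteins that bind HOMER through its EVH1 domain, 2 of 9 rose and none fell, with a median log2 difference of 0.11. SHANK3, a scaffold that meets HOMER at synapses, rose by 0.61 (SE 0.091, limma adjusted p = 0.00124). Its probe sets gave 1.14 and 0.07. DNM3, a dynamin of endocytosis, rose by 0.36 (SE 0.079, limma adjusted p = 0.00852), with probe sets from -0.26 to 0.50. It was no longer past the threshold when all probe sets were averaged or with the class read from all 6 arrays (0.16, limma adjusted p = 0.150 and 0.159). That left 1 of the 9 past the threshold.

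Of 13 further genes of store-operated entry, 3 rose and none fell (median 0.04). STIMATE, an activator of STIM1 at the junction of endoplasmic reticulum and plasma membrane, rose by 0.45 (SE 0.065, limma adjusted p = 0.00109). CRACR2A, a cytoplasmic ORAI regulator, rose by 0.20 (SE 0.060, limma adjusted p = 0.0406), and the membrane tether ESYT3 by 0.24 (SE 0.077, limma adjusted p = 0.0445). All ESYT3 probe sets lay in the dimmest class, and none was past the threshold alone (limma adjusted p from 0.120 to 0.270). The CRACR2A call was lost when any 1 of the 6 arrays was left out (limma adjusted p from 0.0592 to 0.118). ESYT3 lost its call without control replicate 1 or 3 or any SDC1 siRNA replicate (limma adjusted p from 0.0503 to 0.148). Both calls were also lost with the spike-in set described above as a block (limma adjusted p = 0.0692 and 0.0625), and further settings ended the CRACR2A call (quantile normalization, 0.0519, and all probe sets averaged, 0.141) and the ESYT3 call (brightness trend, 0.0699). The count fell to 2 without control replicate 2 and to 1 without any other single array. A gene of this list was called lower with the spike-in set as a block (1 higher and 1 lower) and with all probe sets averaged (3 higher and 1 lower).

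Among enzymes that make or break down IP3 and its relatives, 7 of 25 rose and 4 fell (median 0.02). PLCG2, a phospholipase C that produces IP3, fell by 0.91 (SE 0.077, limma adjusted p = 6.84e-05), though its dimmest probe sets gave -0.25 and -0.09 and the average of all its probe sets was -0.54. INPP4A and INPP5A, phosphatases of inositol lipids and of IP3, rose by 0.90 (SE 0.095, limma adjusted p = 0.000198) and 0.48 (SE 0.058, limma adjusted p = 0.000406). The INPP4A probe sets ran from 0.00 to 0.90 and averaged 0.41. The other INPP5A probe set gave 0.20 (SE 0.15) and was not past the threshold, and the average of its probe sets was 0.34. The count of 11 fell to 7 without control replicate 1, SDC1 siRNA replicate 2 or SDC1 siRNA replicate 3.

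Proteins that bind IP3 receptors or control their turnover had 6 of 14 lower and 1 higher, with a median log2 difference of -0.08. Past the threshold 15.2% of all genes were lower and 13.0% higher. The list had 10 of its 14 genes in the brightest class, where 34.3% of all probe sets were past the threshold in the fit over probe sets. That share counts probe sets and the list counts genes, and no share of genes by class was computed. Whether the list differs from other genes of that class was not tested. ITPRIPL2, a relative of the IP3 receptor-interacting protein, fell by 0.87 (SE 0.066, limma adjusted p = 3.56e-05). Its probe sets disagree, with 4 between -1.43 and -1.22, another at -0.16 and another at 0.27. ERLIN2, which with RNF170 marks activated IP3 receptors for degradation, fell by 0.83 (SE 0.066, limma adjusted p = 4.78e-05), with a probe set in the dimmest class at 0.04. ITPRID2, also known as KRAP, which anchors IP3 receptors to actin, fell by 0.82 (SE 0.066, limma adjusted p = 5.16e-05), and its other probe sets gave -0.76 and 0.06, with an average over all of -0.50.

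Calcium pumps and buffers were near the share of all genes past the threshold (28.2%). Of 16 genes of uptake into and buffering in the endoplasmic reticulum, 2 rose and 2 fell (median -0.04). RCN2, a calcium-binding reticulocalbin, rose by 0.78 (SE 0.065, limma adjusted p = 6.27e-05), and TMBIM6, a calcium leak channel of the reticulum that restrains cell death, fell by 0.68 (SE 0.057, limma adjusted p = 6.23e-05). SLN, an inhibitor of the calcium pump of the reticulum, rose by 0.27 (SE 0.071, limma adjusted p = 0.0221). That call was lost without control replicate 1, control replicate 2 or SDC1 siRNA replicate 1 (limma adjusted p = 0.0545, 0.0762 and 0.0835). The count of 4 in this list fell to 2 without control replicate 2 or SDC1 siRNA replicate 1. In the list of 13 pumps and exchangers that clear calcium from the cytosol, 1 rose and 3 fell (median 0.04). ATP2B1, a plasma membrane calcium pump, fell by 0.51 (SE 0.078, limma adjusted p = 0.00141). The Golgi pump ATP2C1 fell by 0.38 (SE 0.077, limma adjusted p = 0.00675), the mean of probe sets at -0.87, -0.82, 0.09 and 0.10, and was at -0.23 (0.0624 as the limma adjusted p) where all 6 arrays set its brightness class. Another plasma membrane pump, ATP2B3, rose by 0.34 (SE 0.077, limma adjusted p = 0.0109) on 1 probe set, while its other 3 gave -0.19 to -0.03, and read from the class over all 6 arrays it was at -0.03 (limma adjusted p = 0.862). With all probe sets averaged it was at 0.00 (limma adjusted p = 0.975).

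The list of mitochondrial calcium genes, which holds exchange and inhibitory genes beside those of uptake, had 1 of 12 genes higher and 2 lower (median -0.09). MCUB, the inhibitory subunit of the uniporter, rose by 0.56 (SE 0.056, limma adjusted p = 0.00016). SLC8B1, the mitochondrial sodium-calcium exchanger, fell by 0.37 (SE 0.072, limma adjusted p = 0.0051). MICU3, a uniporter regulator, fell by 0.33 (SE 0.10, limma adjusted p = 0.0383), a call lost without control replicate 1 or 3 or SDC1 siRNA replicate 1 or 2 (limma adjusted p from 0.0510 to 0.121) or with the spike-in set as a block (0.0591). In the list of calmodulin-dependent kinases, calcineurin, its RCAN regulators and NFAT, 5 of 20 rose and 5 fell (median -0.01). No calmodulin gene was among the 20. RCAN3 and RCAN1, which bind and restrain calcineurin, were at 0.64 (SE 0.086, limma adjusted p = 0.000679) and -0.51 (SE 0.076, limma adjusted p = 0.00124). The RCAN3 probe sets gave 0.12, 0.31 and 0.64, with an average of 0.35. The kinase CAMK1 rose by 0.50 (SE 0.075, limma adjusted p = 0.00128), while its other probe set gave 0.20 (SE 0.081) and was not past the threshold. Each gene named from the 8 lists had the same sign within both spike-in sets. MICU3 moved most between them in ratio, from -0.56 to -0.14, followed by ATP2C1, from -0.53 to -0.21.

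**Figure D5:**
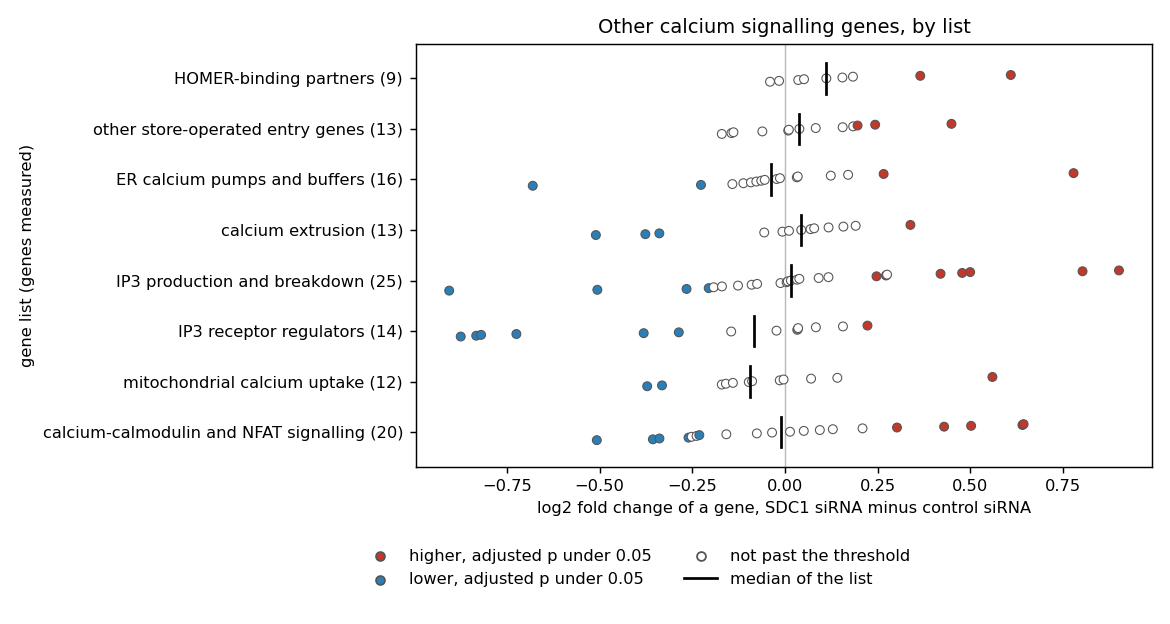
Log2 difference, SDC1 siRNA minus control siRNA (horizontal axis), of each gene in 8 calcium lists (vertical axis), with filled points for genes past an adjusted p of 0.05 (red higher, blue lower), open points for the others, and a black line at the list's median. The medians lie between -0.09 and 0.11, and the list of IP3 receptor regulators has 6 of 14 genes lower and 1 higher. Past the same adjusted p, 15.2% of all genes were lower and 13.0% higher.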

How the data were processed

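The authors deposited log2 values made with RMA (robust multi-array average), per the submitters' processing notes, which give no version. Labelled cRNA was made from 3.6 µg of total RNA per the labels' protocols. Every probe set had a median within 1e-06 of 0, so the values were centred on it, as read from the values and not stated. The platform annotation named a single gene for 41097 of 54675 probe sets (several for 1801, none for 11777), and 62 control probe sets were left out. Symbols were updated through a RefSeq table (GRCh38.p14, 41043 matched).

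A brightness class was read from the numeric step of the upper 3 values of each probe set, and some probe sets may be placed too high. Where the groups of a probe set did not overlap, those 3 values came only from the group where it was higher. The class, and the gene values and shares by class that use it, therefore depend on the contrast. To value a gene, its single-gene probe sets of the brightest class present were averaged, with _x_at probe sets used only where there is no other. Differences were fitted with lmFit and eBayes of limma 3.58.1 under R 4.3.3 (2-sided, no covariates, Benjamini-Hochberg over all genes or all probe sets). The fit was run on simulated data with independent noise for each gene and array. That simulation holds no spike-in sets or other shared noise, so it cannot show how these affect the calls. The number of arrays limits the precision (median SE 0.075).

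The members and the calcium lists were chosen with earlier results of these data known. Named are the 10 members, SDC1, up to 3 genes per calcium list of lowest p past the threshold, and the 5 genes nearest HOMER1. SDC1, marker genes and neighbour transcripts stand outside the lists, and the neighbour transcripts were chosen after their values were seen. Proteins were not analysed here. Alternatives were blocks for replicate number and spike-in set, 2 other scalings, another prior, other gene rules, no dimmest class, and each array left out.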

Additional observations from a re-analysis of the deposited data

How the results depend on the processing

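The counts of genes, probe sets, members and calcium list genes kept within 1.5 times of their value under each alternative run. The 5571 genes called ran from 5245 (spike-in set as a block) to 5814 (brightness trend and robust prior), and from 4486 to 5067 with 1 array left out. The 10828 probe sets called ran from 9641 (spike-in set as a block) to 11719 (brightness trend), and from 7810 to 9515 with 1 array left out. The 5 member genes stayed at 5 with any array left out and came to 6 with all probe sets averaged (ITPR2 added) or with the brightness trend (ITPR3 added). The 12 member probe sets ran from 10 to 12, and the 44 genes of the calcium lists from 34 to 38, with 1 array left out. Of the named genes past the threshold only ATP2B3 changed sign, to -0.034 with the class from all 6 arrays, whose construction reads another probe set. HOMER3 and STIM1, not past it, kept their sign in 9 and 12 of 14 alternatives. With the replicate number as a block, 5460 genes, 9918 probe sets, 5 member genes, 13 member probe sets and 42 list genes were called, and of the named genes only CRACR2A lost its call (limma adjusted p = 0.0679, from 0.0519 to 0.141 over the alternatives that ended it). The labels give a replicate number and state no pairing. Same-numbered arrays deviated together with small correlations of 0.01, 0.08 and 0.10, yet 5 of 6 arrays correlated best with their own number. Whether the replicates were paired was left undecided. Precision is limited by 3 arrays a group, and signal over background could not be read from the values, so detection was not judged.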
